A study of Homo sapiens with 24 samples.

Results

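The messenger RNAs of 8 proteins that bind the poly(A) tail, control its binding or carry a La-type RNA-binding module were followed through a pulse-chase of newly made RNA: PABPC1, PABPC4, PABPN1, PAIP1, PAIP2, LARP1, LARP4 and LARP4B. They were chosen by gene symbol, and all 8 were found among the 25341 genes of the expression table. All 8 also passed the filter, a mean level no lower than 1 in the unit TPM (transcripts scaled to a fixed library total), which kept 13416 genes. The cells were U2OS, an established human osteosarcoma line from ATCC, made into a custom double stable line with a Tet-off switch for Tob2-S254D. Tob2 is an adaptor that connects the cytoplasmic poly(A)-binding protein with the Caf1-Ccr4 deadenylase, and S254D is a phosphomimetic mutant, in which an acidic residue stands in for a phosphorylated serine. Uninduced cells received doxycycline, and induced cells were grown without it and made the mutant, so effects of the drug and of the transgene cannot be told apart. Each arm was sampled at 0, 0.5, 1, 2, 4 and 6 h of chase after bromouridine labelling, with 2 libraries at each time, which gave 24 libraries in 12 groups. The labels say neither whether the line is a single clone nor whether the 2 libraries of a group came from separate cultures. The p-values therefore measure the spread between libraries, which may be technical. Those of slopes also measure how far the times depart from a straight line.

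Bromouridine taken up during the pulse marks new RNA, and an antibody to it recovers the marked molecules from total cytoplasmic RNA. A TPM value is an abundance per transcript length, scaled to a fixed total in each library. A gene whose TPM goes up during the chase therefore gained share among the labelled RNA that was left, and the amount per cell was not measured. In these bulk libraries, fewer cells with a transcript and less of it per cell cannot be told apart.

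The poly(A) tail of a messenger RNA is coated by poly(A)-binding proteins, PABPN1 in the nucleus and PABPC1 with its relative PABPC4 in the cytoplasm. Cytoplasmic poly(A)-binding protein contacts eIF4G at the cap, which favours translation, and also recruits the deadenylases that shorten the tail. PAIP1 binds it and stimulates translation, whereas PAIP2 displaces it from the tail and represses translation. LARP1, LARP4 and LARP4B also bind poly(A)-binding protein: LARP1 controls messenger RNAs that begin with a terminal oligopyrimidine tract, and LARP4 protects poly(A) tails from shortening.

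Messenger RNAs under LARP1 control start with a C followed by a run of C or T, and the mRNA of PABPC1 is a known example. Start sites of 6 of the 8 genes were read from RefSeq for build GRCh38.p14, with 14 starts in all. Starts of PABPC1 and PABPC4 were not among those read, which does not show that RefSeq lacks them. Of the 14, 0 began with a C followed by 4 bases that were each C or T, which says nothing about PABPC1 or PABPC4. Over all 35116 listed starts, 1429 (4.07%) had this tract, read on the transcript's own strand and only at the start. The 14 starts leave out the known example PABPC1, so the 0 cannot be weighed against this share. A match or its absence describes these letters alone. The most upstream start is shown for PAIP1, LARP4 and LARP4B, because results below turn on the ratios in which these genes stand. Lower case marks the 15 bases before the start and capitals the 15 bases from the start on.
PAIP1, chr5:43557397-43557426, minus strand: tccccccgtgtttttATTTCCCGGGCGTCA
LARP4, chr12:50400870-50400899, plus strand: tgacggcaggggaggAGCCGGGTCCACTGC
LARP4B, chr10:931691-931720, minus strand: gggccccggaagtggGAGCTGTGTGTTCTC

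The count of genes at 1 TPM or more ran from 12594 to 13757 over the libraries. RMRP, MIR6723 and RPPH1, which are abundant non-coding RNAs, held between 7.14% and 27.5% of all TPM, with the highest shares at the start of the chase, above all in induced replicate 2. As a check of the labels, TOB2 lay between 499 and 725 TPM in the 12 induced libraries and between 92.3 and 267 TPM in the 12 uninduced ones. These TOB2 values cannot tell the transgene's transcript from the cell's own. Of 8 markers listed for a mesenchymal bone line, 4 reached a mean of 1 TPM: VIM, COL1A1, RUNX2 and BGLAP. The markers SPARC, COL1A2, ALPL and SP7 stayed below it. The summed level of 3 epithelial markers lay between 0.03 and 0.57 TPM, with EPCAM at 0 in every library, although the labels call the cells epithelial. The sum of 4 leukocyte markers lay between 11.9 and 61.2 TPM and was carried almost wholly by LYZ, and that of 2 endothelial markers between 2.43 and 5.14 TPM.

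All 8 genes gained share during the chase in both arms. On a straight line through the log2(TPM + 1) values of each arm, 8 of 8 rose in uninduced cells and 8 of 8 rose in induced cells (limma, Benjamini-Hochberg adjusted p under 0.05 over all 13416 genes). Over all genes, 42.8% rose in uninduced cells and 41.6% in induced cells, so a rise was common, and 22.3% and 29% fell. The median slope of the 8 genes was 0.17 log2 units per hour in uninduced cells, against 0.039 for all genes, and 0.19 against 0.028 in induced cells. The slopes of all 8 lay above the median of all genes in both arms, but for PAIP2 this depended on the filter and the scaling. Among genes averaging 5 TPM or more the medians were 0.064 and 0.060, and PAIP2, at 0.046 and 0.062, was below the uninduced one. Under quantile normalization PAIP2 lay below the median in both arms, at -0.028 against 0.019 and 0.0051 against 0.026. How many rose depended on the chase range and the scaling. With chase up to 2 h, 4 of the 8 rose in uninduced and 5 of the 8 in induced cells, and up to 4 h 7 of the 8 in each. Under other scalings the counts were 7 of 8 in each arm under quantile normalization or median-of-ratios scaling, and 7 uninduced and 6 induced without the 3 abundant RNAs. Rising genes made up 65.8% of all called slopes in uninduced cells, and 48.4% under median-of-ratios scaling, 51.8% without the 3 abundant RNAs and 55.5% with protein-coding transcripts alone. In induced cells the share was 58.9%, and 44.7% without the 3 RNAs and 47% with protein-coding transcripts alone. Median-of-ratios scaling moved the median slope of all genes by -0.044 in uninduced cells, which is -0.26 log2 units over 6 h, so the rises are relative to the total of each library.

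**Figure D1:**
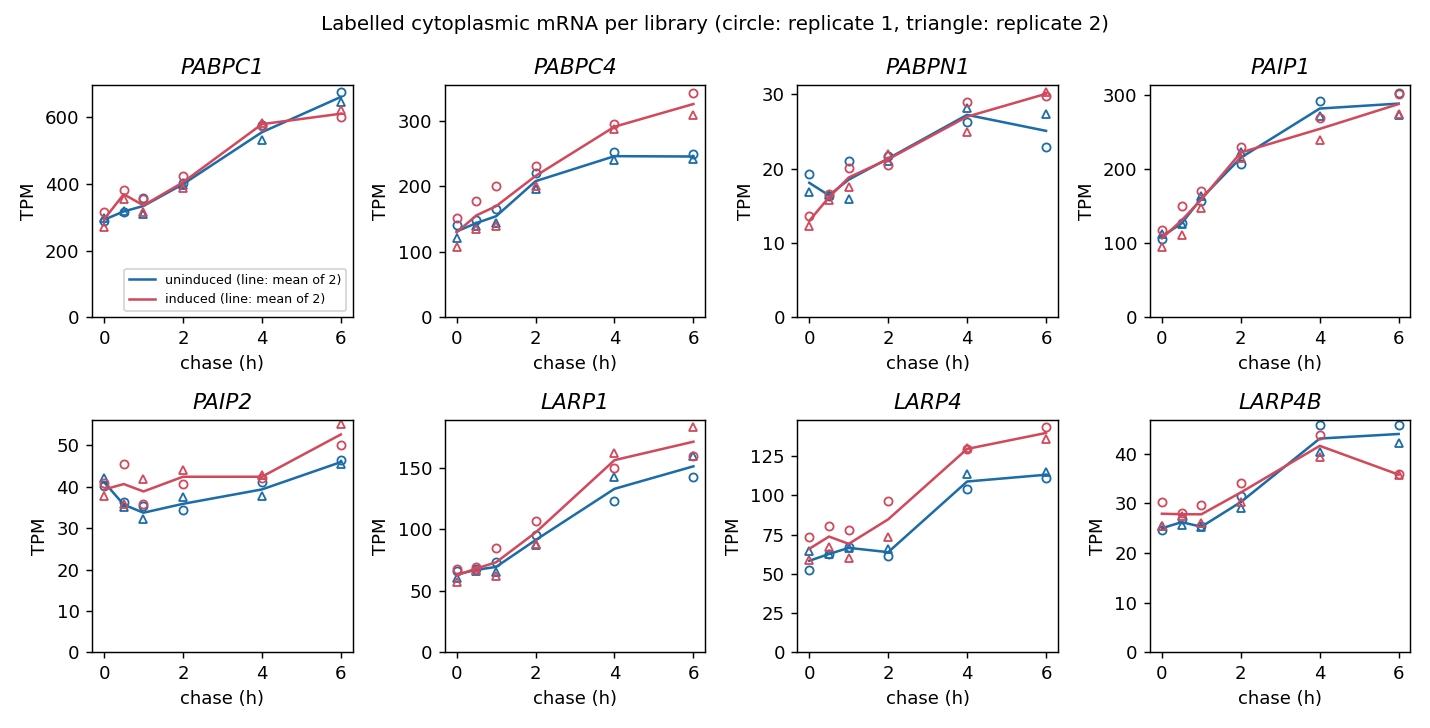
TPM of the 8 genes in each of the 24 libraries against hours of chase, with points for single libraries and lines through the means of 2 libraries per arm. PABPC1 is the most abundant throughout, and from 0 to 6 h the smallest gains are 1.12-fold for PAIP2 in uninduced cells and 1.28-fold for LARP4B in induced cells.

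PABPC1, the main cytoplasmic poly(A)-binding protein, had the highest level of the 8 at 0 h and at 6 h in both arms. In uninduced cells it measured 288 and 297 TPM at 0 h and 676 and 644 TPM at 6 h, a 2.26-fold gain. The induced libraries held 316 and 271 TPM at 0 h and 599 and 621 TPM at 6 h, a 2.08-fold gain. The arms overlapped at 0, 1, 2 and 4 h. Both induced libraries were higher at 0.5 h, 1.16-fold by their means, and lower at 6 h. The slopes were 0.20 (SE 0.0168, adjusted p = 4.5e-10) and 0.18 (SE 0.0168, adjusted p = 2.21e-09) log2 units per hour. The uninduced slope lay at the 92nd percentile of all genes and the induced slope at the 85.3rd.

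PABPC4, the other cytoplasmic poly(A)-binding protein, overlapped between the arms at 0 h and was higher in both induced libraries at the end. It measured 141 and 121 TPM at 0 h and 249.9 and 241 TPM at 6 h in uninduced cells. Without doxycycline the values were 152 and 107 TPM at 0 h and 343 and 308 TPM at 6 h. The induced libraries were above the uninduced ones at 4 and 6 h and overlapped them at the 4 earlier times. The gain was 1.87-fold in uninduced and 2.51-fold in induced cells, with slopes of 0.16 (SE 0.0272, adjusted p = 1.91e-05) and 0.22 (SE 0.0272, adjusted p = 1.23e-07). The difference between these slopes was 0.063 log2 units per hour (95% interval -0.0168 to 0.142, adjusted p = 0.539) and did not pass.

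PABPN1, the nuclear poly(A)-binding protein that also sets tail length during synthesis, was the lowest of the 8 at 0 h and at 6 h in both arms. At 0 h the uninduced libraries held 19.3 and 16.9 TPM and the induced ones 13.7 and 12.3 TPM, and the arms did not overlap. At 6 h the order was the other way: 22.9 and 27.3 TPM with doxycycline, and 29.8 and 30.4 TPM without it. At the 4 times between, the arms overlapped. The slopes were 0.10 (SE 0.0224, adjusted p = 0.000271) and 0.18 (SE 0.0224, adjusted p = 1.97e-07), and the uninduced call was lost without replicate 2, at 0.068 (adjusted p = 0.091), and with chase up to 2 h, at 0.14 (adjusted p = 0.153). Their difference of 0.072 (95% interval 0.0071 to 0.138) had an unadjusted p of 0.0312 and an adjusted p of 0.337. BCL2L2-PABPN1, a readthrough gene that shares sequence with PABPN1, averaged 79.2 TPM against 21.1 TPM for PABPN1, so how reads were divided between the 2 names bears on these values. The sum of both at 0 h was 73.3 ± 2.86 TPM for uninduced cells against 73.0 ± 10.9 TPM for induced ones (SD, n = 2 each), and at 6 h it was 137 ± 1.18 TPM against 155.8 ± 3.58 TPM. The sums overlapped between arms at 0 h and did not at 6 h.

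PAIP1, the translational activator, had the steepest uninduced slope of the 8. It measured 106 and 113 TPM at 0 h and 304 and 274 TPM at 6 h in uninduced cells, and 119 and 95.1 TPM at 0 h and 302 and 275 TPM at 6 h in induced cells. The gain was 2.64-fold and 2.70-fold. The uninduced slope was 0.23 (SE 0.0318, adjusted p = 8.29e-07), at the 95.4th percentile of all genes, and the induced slope 0.23 (SE 0.0318, adjusted p = 1e-06). The slopes differed by -0.0080 (95% interval -0.101 to 0.0847), and the arms overlapped at every time except 4 h, where induced cells were the lower ones.

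PAIP2, the repressor that removes poly(A)-binding protein from the tail, had the smallest slope of the 8 in each arm, and its path was not a straight line. In uninduced cells it measured 40.1 and 42.1 TPM at 0 h, 35.3 and 32.1 TPM at 1 h and 46.4 and 45.6 TPM at 6 h. The induced libraries held 40.9 and 37.8 TPM at 0 h, 35.8 and 42.0 TPM at 1 h and 50.2 and 55.1 TPM at 6 h. By their means, both arms were thus lowest at 1 h and highest at 6 h. In induced cells the low at 1 h rests on replicate 1, at 35.8 TPM. Replicate 2, at 42.0 TPM, was above its own 0 h value of 37.8 TPM, so a dip in induced cells is not shown. Its slopes of 0.046 (SE 0.0185, adjusted p = 0.0341) and 0.062 (SE 0.0185, adjusted p = 0.00467) lay at the 52.2nd and 57.9th percentiles of all genes. Both calls rest on the scaling and on the last time: the uninduced slope was -0.0027 (adjusted p = 0.928) under median-of-ratios scaling and 0.0085 (adjusted p = 0.826) with the 6 h libraries left out, and the induced slope 0.026 (adjusted p = 0.326) and 0.029 (adjusted p = 0.388). The induced call was also lost without induced 6 h replicate 2, at 0.047 (adjusted p = 0.0583). The uninduced call was lost in 4 fits that each left out 1 library, among them at 0.036 (adjusted p = 0.172) without uninduced 6 h replicate 1 and 0.038 (adjusted p = 0.141) without uninduced 6 h replicate 2.

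LARP1, the regulator of terminal oligopyrimidine messenger RNAs, rose steeply in both arms. It measured 66.1 and 60.5 TPM at 0 h and 143 and 159.9 TPM at 6 h in uninduced cells, and 68.1 and 57.2 TPM at 0 h and 159.7 and 183 TPM at 6 h in induced cells. The gains were 2.39-fold and 2.74-fold. Its slopes were 0.23 (SE 0.0226, adjusted p = 8.18e-09) and 0.26 (SE 0.0226, adjusted p = 4.22e-10), and the induced slope was the steepest of the 8, at the 96.3rd percentile of all genes. The arms overlapped at 5 of 6 times, and at 4 h both induced libraries were above the uninduced ones.

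LARP4, which lengthens and protects poly(A) tails, was higher in induced cells at most times. In uninduced cells it measured 52.4 and 64.2 TPM at 0 h, 61.5 and 66.1 TPM at 2 h and 111 and 115 TPM at 6 h. The induced libraries held 73.3 and 58.6 TPM at 0 h, 96.3 and 73.2 TPM at 2 h and 144 and 136 TPM at 6 h. The induced libraries lay above the uninduced ones at 0.5, 2, 4 and 6 h and overlapped them at 0 and 1 h. Its slopes were 0.17 (SE 0.0237, adjusted p = 8.49e-07) and 0.20 (SE 0.0237, adjusted p = 8.61e-08). They differed by 0.024, with an adjusted p of 0.827. With chase up to 2 h neither slope passed, at 0.062 (adjusted p = 0.639) and 0.16 (adjusted p = 0.139).

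LARP4B, its close relative and also a cytoplasmic RNA-binding protein, gained less in induced cells than in uninduced cells, 1.28-fold against 1.76-fold. In uninduced cells it measured 24.6 and 25.4 TPM at 0 h, 45.8 and 40.3 TPM at 4 h and 45.8 and 42.2 TPM at 6 h. The induced libraries held 30.4 and 25.5 TPM at 0 h, 43.8 and 39.4 TPM at 4 h and 35.9 and 35.7 TPM at 6 h. Both induced libraries were above the uninduced ones at 0, 0.5 and 1 h and below them at 6 h. The slopes were 0.15 (SE 0.0198, adjusted p = 4.12e-07) and 0.084 (SE 0.0198, adjusted p = 0.000573). Their difference of -0.068 (95% interval -0.126 to -0.0104) had an unadjusted p of 0.0225 and an adjusted p of 0.302. The induced call was lost with protein-coding transcripts alone, at 0.027 (adjusted p = 0.192), without the 3 abundant RNAs, at 0.037 (adjusted p = 0.0746), and without replicate 2, at 0.073 (adjusted p = 0.0504). With chase up to 2 h neither slope passed, at 0.13 (adjusted p = 0.103) and 0.10 (adjusted p = 0.164).

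At 0 h in uninduced cells the order of the mean levels per length was PABPC1, PABPC4, PAIP1, LARP1, LARP4, PAIP2, LARP4B and PABPN1. Neighbours in that order did not overlap between libraries except LARP1 and LARP4. At 6 h in uninduced cells PAIP1 stood above PABPC4, and PAIP2 and LARP4B overlapped.

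Whether the gain in share differed between the arms was tested by the difference of the slopes. In limma 0 of the 8 passed, against 0.343% of all genes. This contrast does not set the mutant apart from the drug, and a change common to all labelled RNA would not show in shares. At an unadjusted p under 0.05 the count was 2 of 8, PABPN1 and LARP4B in opposite directions, and 1673 of 13416 genes in all. The median slope difference of the 8 was 0.020 log2 units per hour, against -0.0094 for all genes. At 0 h, before any chase, 0 of 8 differed between arms in limma, against 0.0298% of all genes, and 1 of 8 had an unadjusted p under 0.05. That gene was PABPN1, with -0.45 (SE 0.132, adjusted p = 0.443).

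**Figure D2:**
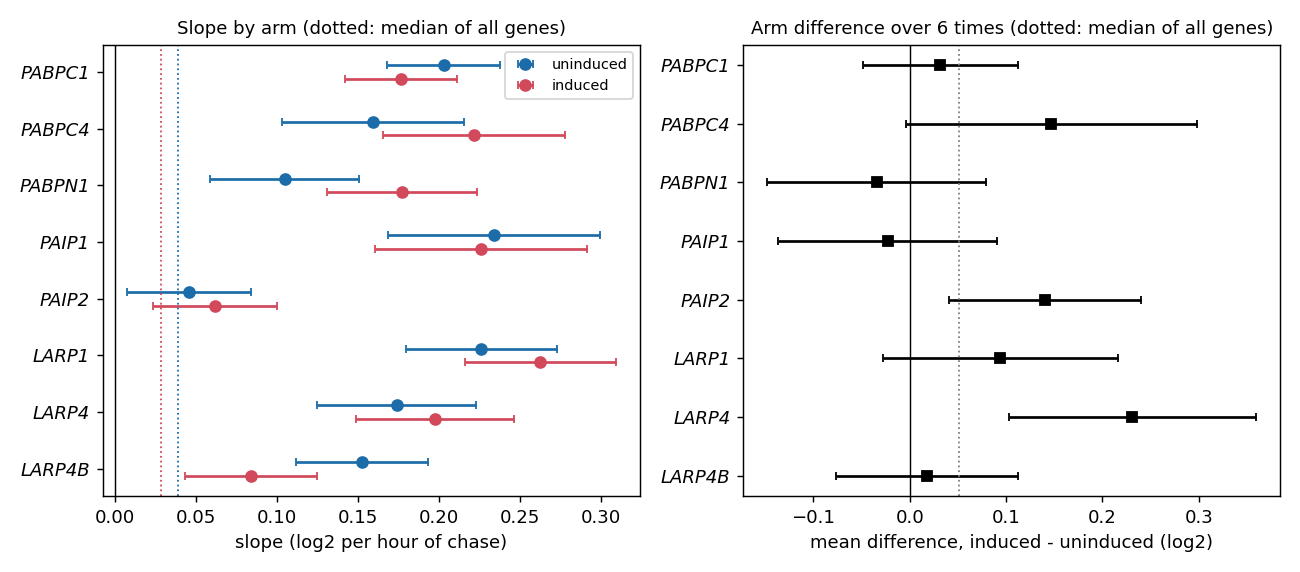
Slope of log2(TPM + 1) per hour of chase for each of the 8 genes in uninduced and induced cells, with 95% intervals from limma. All 8 slopes are above 0 in both arms, and the arms' intervals lie furthest apart for PABPN1 and LARP4B.

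The mean difference between arms over the 6 times passed for 2 of the 8, both higher in induced cells, against 14.3% of all genes higher and 11.4% lower. LARP4 was 0.23 log2 units higher (SE 0.0606, adjusted p = 0.011), a 1.17-fold difference. PAIP2 was 0.14 higher (SE 0.0471, adjusted p = 0.0385), a 1.10-fold difference. The LARP4 call held under the 4 other scalings tried, with values from 0.19 to 0.25, but not with the 6 h libraries left out (0.22, adjusted p = 0.0546). The PAIP2 call was lost under median-of-ratios scaling (0.10, adjusted p = 0.161), under quantile normalization (0.11, adjusted p = 0.0952), with chase up to 4 h (0.13, adjusted p = 0.124), with its most abundant transcript (0.16, adjusted p = 0.072) and in 15 of the 24 fits that each left out 1 library, in which adjusted p lay between 0.051 and 0.0781. PABPC4 was 0.15 higher (adjusted p = 0.141) and did not pass. It did so without induced 0 h replicate 2 (0.19, adjusted p = 0.0428) or without induced 1 h replicate 2 (0.19, adjusted p = 0.0416), under quantile normalization (0.17, adjusted p = 0.0343) and without the 3 abundant RNAs (0.17, adjusted p = 0.037), which held 27.5% and 21.4% of TPM in those libraries. The part of these RNAs in the PABPC4 result was not tested beyond that. PABPC4 also passed with a term for the replicate number in the fit, the replicate block (0.15, adjusted p = 0.0243). It passed too with protein-coding transcripts alone (0.18, adjusted p = 0.0234). LARP1 was 0.094 higher, PABPC1 0.032 higher and LARP4B 0.018 higher, and PAIP1 and PABPN1 were -0.023 and -0.034, with adjusted p between 0.241 and 0.794.

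Counted by libraries alone, the arms did not overlap for 2 of the 8 genes at 0 h, against 27.1% of all genes. The counts were 3 at 0.5 h (38.8% of all genes), 2 at 1 h (33.2%), 2 at 2 h (44.5%) and 5 at 4 h (48.6%). At 6 h the count was 6 of 8, against 59.7% of all genes, with PABPC4, PABPN1, PAIP2 and LARP4 higher and PABPC1 and LARP4B lower in induced cells. Separation by 6 h was thus common over the whole table.

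The 3 pairs with related functions were compared within each library, where a scaling factor common to both genes cancels. The ratio of PAIP2, the repressor, to PAIP1, the activator, fell in both arms. In uninduced cells it was 0.376 ± 0.00446 at 0 h, 0.166 ± 0.00163 at 2 h and 0.160 ± 0.00962 at 6 h (SD, n = 2 each). In induced cells it was 0.371 ± 0.0371 at 0 h, 0.191 ± 0.0194 at 2 h and 0.184 ± 0.0240 at 6 h. Most of the fall came within the first 2 h, and the 6 h means were above the 4 h means of 0.140 and 0.167. The slope of the log2 ratio was -0.19 per hour in uninduced cells (permutation p = 0.00258, adjusted over the 12 tests of this family 0.0126) and -0.16 in induced cells (permutation p = 0.00315, adjusted 0.0126). The slopes differed by 0.024 (exact permutation p = 0.455). Averaged over the times, the log2 ratio was 0.16 higher in induced cells (exact permutation p = 0.00454, adjusted 0.0136), and this was lost without uninduced 1 h replicate 2 (0.15, adjusted 0.0552).

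LARP4B lost ground to LARP4 in induced cells. The ratio was 0.424 ± 0.0144 at 0 h and 0.256 ± 0.00912 at 6 h in induced cells, against 0.432 ± 0.0525 and 0.389 ± 0.0321 in uninduced cells (SD, n = 2 each). The slope of the log2 ratio was -0.11 per hour in induced cells (permutation p = 8e-05, adjusted 0.00096) and -0.022 in uninduced cells (permutation p = 0.322). The difference of the slopes was -0.092 and did not pass (exact permutation p = 0.112, adjusted 0.134), so the arms are not shown to differ in slope. Averaged over the times, the log2 ratio was lower in induced cells, at -0.21 (exact permutation p = 0.00947, adjusted 0.0227). This call was lost with chase up to 4 h (-0.14) and with each gene's most abundant transcript (-0.042), and with the replicate block (-0.21, adjusted 0.0516).

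The ratio of PABPC4 to PABPC1 lay between 0.370 and 0.573 over the 24 libraries. The ratio went from 0.449 ± 0.0583 at 0 h to 0.372 ± 0.00318 at 6 h in uninduced cells, and from 0.439 ± 0.0610 to 0.535 ± 0.0537 in induced cells (SD, n = 2 each). The slopes of the log2 ratio, -0.044 (permutation p = 0.0433, adjusted 0.0865) and 0.045 (permutation p = 0.0715, adjusted 0.107), had opposite signs, and neither passed after adjustment. Their difference of 0.089 did not pass either (exact permutation p = 0.0648, adjusted 0.107).

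**Figure D3:**
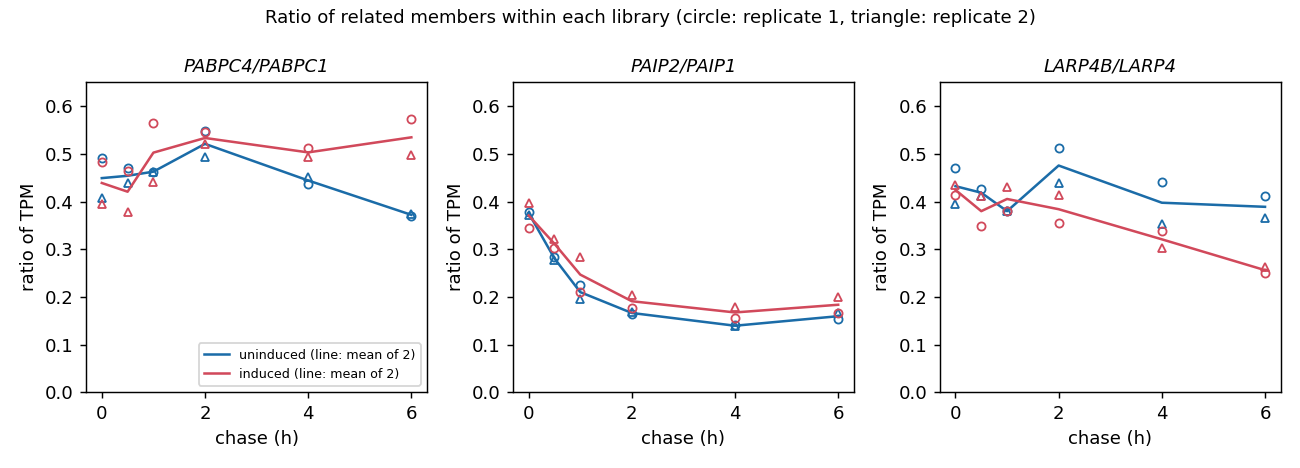
TPM ratios PABPC4/PABPC1, PAIP2/PAIP1 and LARP4B/LARP4 in each library against hours of chase, with lines through the means of 2 libraries. PAIP2/PAIP1 falls in both arms from near 0.37 at 0 h, and LARP4B/LARP4 reaches 0.256 at 6 h in induced cells against 0.389 in uninduced cells.

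The deposited table lists single transcripts, and for PABPC4 these did not move together. Of its 3 transcripts, NM_001135654 made up 34.0 ± 4.02% of the gene at 0 h and 61.8 ± 0.329% at 6 h in uninduced cells, and 41.2 ± 7.57% and 63.4 ± 0.561% in induced cells (SD, n = 2 each). NM_001135653 went from 55.5 ± 2.02% to 30.4 ± 0.929% in uninduced cells and from 47.4 ± 1.94% to 28.0 ± 0.734% in induced cells. In TPM, NM_001135654 went from 52.1 and 37.7 at 0 h to 155 and 148 at 6 h in uninduced cells, and from 71.0 and 38.4 to 219 and 194 in induced cells. NM_001135653 stayed between 52.2 and 99.0 TPM in all 24 libraries.

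Most of the exchange fell between 1 and 2 h. In uninduced cells the share of NM_001135654 was 43.4% and 47.6% at 1 h and 63.2% and 58.7% at 2 h, and in induced cells 39.98% and 35.3% at 1 h and 57.3% and 63.0% at 2 h. A fit over 21749 transcripts was added after the data were seen. Of these transcripts, 26.2% had a positive called slope in uninduced and 27.5% in induced cells. NM_001135654 had slopes of 0.31 (limma adjusted p = 7.08e-05) and 0.35 (adjusted p = 1.17e-05). NM_001135653 had slopes of -0.0043 (adjusted p = 0.925) and 0.062 (adjusted p = 0.0886). Transcripts of a gene share most of their sequence, so how reads were divided among them is an estimate whose error the table does not give.

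**Figure D4:**
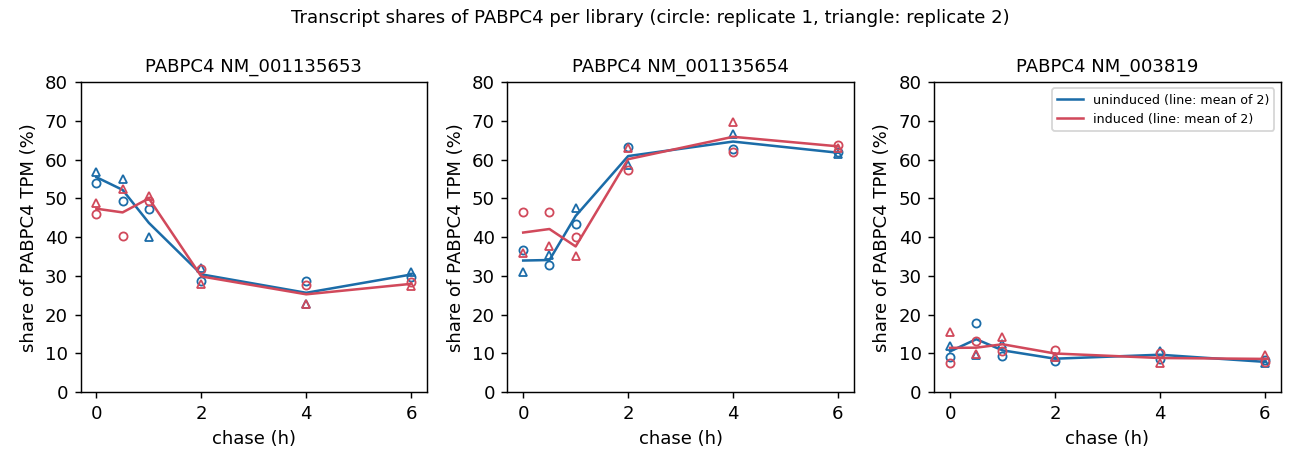
Percent of PABPC4 TPM held by each of its 3 transcripts in each library, plotted against hours of chase for both arms. NM_001135654 holds at most 46.55% at 0 h and at least 61.56% at 6 h. For NM_001135653 the share is 45.98% or more at 0 h and 31.02% or less at 6 h.

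LARP4 was listed with 7 transcripts, PAIP1 and PAIP2 with 3 each, and the other 4 genes with 1. For LARP4 the share of NM_001170804 went from 17.6% at 0 h to 55.1% at 6 h in induced cells and from 31.2% to 44.8% in uninduced cells (means of 2 libraries). NM_052879 went from 52.9% to 19.6% and from 55.5% to 40.7% over the same times. With its most abundant transcript in place of the gene, the LARP4 mean difference between arms was 0.060 (limma adjusted p = 0.802), so the higher level of LARP4 rests on the sum of its transcripts. PAIP2 was mostly NM_016480, with a median share of 93.3% over the libraries, and PAIP1 mostly NM_006451, with 75.3%.

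Of genes related to PABPC1 by sequence, PABPC1P2 averaged 6.06 TPM, PABPC4L 7.13 TPM, PABPC1L 1.85 TPM and PABPC3 0.619 TPM, which is little beside PABPC1. LARP1B averaged 28.2 TPM against 100.4 TPM for LARP1. Reads shared with such related genes could be divided either way.

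Over the 24 libraries the genes most like each member in log2(TPM + 1), by Pearson's r among 10352 genes averaging 5 TPM or more, shared with it the chase time, the library and its scaling, so r is a description. For PABPC1 these were M6PR (0.985), TRA2A and B4GALT3, and for PABPC4 they included POFUT2 (0.980) and TATDN2. PAIP1 was most like PPP1CC (0.994), AK4 and SYNCRIP, and LARP1 was most like PRPF8 (0.992), HDLBP and KPNB1. LARP4 was most like HEATR1 (0.983), ARFGEF1 and NUP107, and LARP4B most like PCNXL4 (0.970), RBPJ and CDC73. PABPN1 had BRMS1 (0.945), TMEM126A and GSK3A. PAIP2 had the least alike neighbours, PRMT3 (0.831), HIBADH and VPS41. Among the 8 genes themselves, r was highest for PABPC1 and LARP1 (0.967) and lowest for PAIP1 and PAIP2 (0.478).

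Other genes of the pathway were read from 5 lists. In the La-related family, 3 of 4 rose in uninduced and 3 of 4 in induced cells, with 0 falling, against 42.8% and 41.6% of all genes rising: LARP1B (slopes 0.23 and 0.22), SSB, the La protein itself (0.18 and 0.21), and LARP7, which binds the small RNA 7SK (0.12 and 0.15). LARP6 had slopes of 0.056 and 0.015, which did not pass. The median slopes of this list were 0.15 and 0.18, against 0.039 and 0.028 for all genes. Of 8 further poly(A)-binding genes, 2 passed the filter of low values, PABPC4L and PABPC1L, and PABPC4L fell in induced cells, with a slope of -0.17.

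A list of 18 genes held partners of cytoplasmic poly(A)-binding protein and relatives of such partners. Of these genes 17 passed the filter, and 11 rose and 3 fell in uninduced cells, against 11 and 2 in induced cells. Over all genes, 42.8% and 41.6% rose and 22.3% and 29% fell. EIF4G2, listed as a relative of the scaffold eIF4G, had slopes of 0.28 and 0.31. GSPT1, the release factor eRF3a, had 0.25 and 0.27, and ATXN2L 0.30 and 0.32. The median slopes of this list were 0.13 and 0.079, against 0.039 and 0.028 for all genes. TOB1, the sister gene of TOB2, fell in both arms, at -0.20 and -0.37, and its slope difference of -0.17 passed (adjusted p = 0.0311). No gene passed for a slope difference with chase up to 4 h, or without replicate 1 or replicate 2, so this call was lost there. TOB2 itself had slopes of -0.21 and 0.016 and a slope difference of 0.22 (adjusted p = 0.00807), and its transgene bears on these values.

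Of 20 genes for poly(A) tail synthesis, 12 rose and 4 fell in uninduced cells and 11 rose and 4 fell in induced cells. Over all genes, 42.8% and 41.6% rose and 22.3% and 29% fell, so the share that fell was near that of the whole table. The median slopes of the list were 0.12 and 0.11, against 0.039 and 0.028. CPSF6, a subunit of the cleavage factor that selects poly(A) sites, had slopes of 0.37 and 0.37, and its partner NUDT21 0.30 and 0.25. CLP1, a kinase of the cleavage complex, fell at -0.31 and -0.50 and was lower in induced cells over the 6 times, at -0.45 (adjusted p = 1.08e-05). In all, 3 of the 20 were higher and 3 lower in induced cells over the times, near the 14.3% and 11.4% of all genes.

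Of 12 genes that link LARP1 to the kinase mTOR, 7 rose and 1 fell in uninduced cells and 9 rose and 1 fell in induced cells, where 42.8% and 41.6% of all genes rose and 22.3% and 29% fell. The median slopes were 0.066 and 0.10, against 0.039 and 0.028 for all genes. RHEB, the GTPase that activates mTOR, had slopes of 0.22 and 0.25, EIF4E, the cap-binding protein, 0.18 and 0.20, and MTOR 0.13 and 0.17. Over the 6 times MLST8, a subunit of both mTOR complexes, was lower in induced cells, at -0.36 (adjusted p = 0.00123), and EIF4EBP2, a repressor of EIF4E, at -0.30 (adjusted p = 0.000164). RPS6KB1, the S6 kinase downstream of mTOR, was higher, at 0.23 (adjusted p = 0.0174). These were 2 of 12 lower and 1 of 12 higher, against 11.4% and 14.3% of all genes.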

How the data were processed

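Transcript abundance was read for 24 libraries from one deposited table of TPM per RefSeq transcript. Per the submitters' processing notes, Trim Galore, Bowtie2, RSEM 1.3.0 and hg19 were used, with no role or order given. The authors' deposited TPM keep no depth, so the counting precision of each library is unknown. TPM was summed per gene symbol, and 13416 genes averaging 1 TPM or more were tested on log2(TPM + 1) with limma 3.58.1 in R 4.3.3. The fit used a variance trend and Benjamini-Hochberg adjustment over all genes at 0.05. The pseudocount of 1 makes a fold change understate that of low genes. One model had a straight line on hours in each arm (20 residual degrees of freedom), and one had a mean for each of the 12 groups (12 residual degrees of freedom). Log2 ratios of gene pairs were tested by 100000 permutations of time within an arm, and by all 46656 reassignments of arm within time, two-sided. The 8 genes, the lists and the tests were chosen with earlier results of these data known. Named genes were the 8, the 3 most correlated genes of each, and up to 4 genes of smallest p in each list. A few items that these rules select are not reported here. Only the slope difference of the limma fit and the permutation tests of the pairs were tested on simulated data. Alternatives covered the pseudocount, filter, scaling, transcripts, chase range, replicate block and each library left out.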

Additional observations from a re-analysis of the deposited data

How the results depend on the processing

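The number of genes called for a slope difference, 46, was 88 with a pseudocount of 0.1, 25 with 5, 30 with no filter, 84 with a mean of 5 TPM or more, 179 under quantile normalization, 328 without RMRP, MIR6723 and RPPH1, 400 with protein-coding transcripts alone and 7 with transcripts. In limma it was 0 with chase up to 4 h and 0 up to 2 h, where 947 and 190 genes had an unadjusted p under 0.05. Leaving out libraries gave 0 to 164, with 0 without replicate 1 (568 at an unadjusted p under 0.05) and without replicate 2 (1513). For 0 h, 4 genes became 7 under quantile normalization, 8 without the 3 RNAs, 10 with protein-coding transcripts and 2 with no variance trend, and 0 to 5 without single libraries, where the 0 had 665 genes at an unadjusted p under 0.05. The 3454 mean differences became 1811 with transcripts, 1933 up to 4 h and 1045 up to 2 h, and the called slopes, 8739 and 9480, became 3008 and 3826 up to 2 h. The causes were not tested, beyond the fewer samples or features in a fit.

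Same-numbered libraries of the arms were not shown to be paired by time: their deviations at the same time correlated by 0.0203 to 0.156. Over all 66 pairs of groups the median was 0.0975 and the highest 0.253, and 29 were above 0.1. Same-numbered libraries thus shared a small part of their deviation across groups, which the main fits ignore. Its source was not tested. With the replicate block, 99 genes were called for a slope difference and 11 at 0 h. The block brought the PABPC4 mean difference past the threshold (adjusted p = 0.0243), as it did the NM_001135653 induced slope of 0.062 (adjusted p = 0.0456). It took the LARP4B/LARP4 mean arm difference of -0.21 to an adjusted p of 0.0516.

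Signs turned in the following values, of which the PAIP2 slope alone had passed the threshold. The PAIP2 uninduced slope was -0.028 under quantile normalization, -0.0027 with median-of-ratios scaling, -0.0013 with protein-coding transcripts and -0.081 up to 2 h. The LARP4B mean difference was -0.0062 and -0.020 under the first 2 of these. Median-of-ratios scaling gave PAIP1 a slope difference of 0.0044 and PABPC1 -0.060 at 0 h and a mean difference of -0.0081. Without the 3 RNAs PABPC4 was 0.0051 and LARP1 0.019 at 0 h, and with protein-coding transcripts PABPC4 was 0.021, PAIP1 0.012 and LARP1 0.035, with a PAIP1 mean difference of 0.0079. With transcripts PABPC4 was 0.23 and LARP4 -0.62 at 0 h. Up to 2 h PAIP1 had a slope difference of 0.035 and a mean difference of 0.0038. NM_001135653 had an induced slope of -0.0092 under quantile normalization.

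Of the pairs, PABPC4/PABPC1 had an uninduced slope of -0.081 under quantile normalization (past the threshold), 0.0031 up to 4 h and 0.11 with each gene's most abundant transcript, where the induced slope was 0.17. PAIP2/PAIP1 had a mean arm difference of 0.13 under quantile normalization and an induced slope of -0.14 with those transcripts, both no longer past it. LARP4B/LARP4 had a mean arm difference of -0.14 up to 4 h and -0.042 with those transcripts (no longer past it), where its slope difference was -0.22 (past it).

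Leaving out libraries gave slope differences of -0.054 to 0.0016 for PABPC1, -0.045 to 0.029 for PAIP1, -0.0082 to 0.041 for PAIP2 and -0.0072 to 0.055 for LARP4. At 0 h it gave -0.11 to 0.11 for PABPC1, -0.29 to 0.22 for PABPC4, -0.20 to 0.12 for PAIP1 and -0.14 to 0.11 for LARP1. Mean differences ran from -0.059 to 0.014 for PAIP1 and -0.0023 to 0.038 for LARP4B. NM_001135653 had uninduced slopes of -0.018 to 0.0079 and NM_001135654 slope differences of -0.0034 to 0.082. PABPC4/PABPC1 uninduced slopes ran from -0.055 to -0.032, and passed without uninduced 0 h replicate 2 or uninduced 2 h replicate 1. PAIP2/PAIP1 slope differences ran from -0.017 to 0.064 and mean arm differences from 0.13 to 0.20. Of 1773 further values, 1670 kept direction and side of the threshold. The depth of each library is unknown, so counting error could not be set apart.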
